A study of Homo sapiens with 9 samples.

Results

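The 5 connexin genes GJB1, GJC1, GJB2, GJA1 and GJB5 were followed on 9 expression arrays of RKO cells, an established colorectal cancer cell line. They were taken by gene symbol, with every probe that carries 1 of the 5 names, and each proved to have 1 probe. They are 5 of the 20 connexin genes and of the 36337 gene names on the array. They were selected on measured values of these arrays, since the low GJB1 signal in cells given both treatments was known when the genes were picked, and the values behind the other 4 are not stated. Differences of these 5 genes are therefore given as a description with their standard errors and without a p-value. The lists of other genes described below were also chosen with earlier results of these data known. Their genes are named mainly where called, so the p-values given for them are descriptive and not independent tests.

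The question of the experiment was whether loss of UHRF1, the protein that guides maintenance DNA methylation to newly copied DNA, changes expression alone or together with histone deacetylase inhibition. Cells were transfected for 72 h with a control siRNA (siCONT) or with an siRNA against UHRF1 (siUHRF1), after which trichostatin A (TSA), an inhibitor of histone deacetylases, was added at 300 nM for 24 h or its ethanol vehicle was given. Each of these 4 groups held 2 arrays. The 2 siUHRF1 arrays used different siRNAs, siUHRF1-1 as replicate 1 and siUHRF1-2 as replicate 2, and the siUHRF1 + TSA arrays were numbered in the same way. A ninth array held RKO cells given 1 µM 5-aza-dC, an inhibitor of DNA methyltransferases, for 72 h without siRNA. That array had no replicate, lay on another slide and was scanned apart from the other 8, so treatment, slide and the absence of transfection cannot be told apart in it. Nothing in the labels says that replicate arrays came from separate cultures, so p-values measure the spread between these arrays, which may be technical. In siUHRF1 and siUHRF1 + TSA that spread also holds the difference between the 2 siRNAs. Over the tested probes, the median log2 gap between the 2 arrays was 0.261 in siUHRF1 and 0.190 in siUHRF1 + TSA. It was 0.0699 in siCONT and 0.0756 in siCONT + TSA. Each test pools the spread of a probe over all these groups.

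Connexins are the membrane proteins of gap junctions. They assemble into hemichannels, and hemichannels of neighbouring cells dock to form channels that pass ions and small metabolites. In epithelia the set of connexins that a cell makes decides which cells can couple, and many carcinomas are known to make less connexin or to keep it inside the cell. GJB1 is the connexin of hepatocytes and of myelinating Schwann cells and is made in glandular epithelium, GJB2 serves the cochlea and the epidermis, GJB5 the epidermis and the placenta, GJA1 is the most widely made member, and GJC1 is the connexin of vascular smooth muscle and of the cardiac conduction system.

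The GJB1 probe is shown first, because the GJB1 result rests on a single spot of it, and is read 5′ to 3′ in the sense of the transcript. The GJB1 probe lies on the plus strand of chrX:70444287-70444346 of hg19, the build of the array files, and begins at base 875 of the GJB1 transcript.
GJB1 probe: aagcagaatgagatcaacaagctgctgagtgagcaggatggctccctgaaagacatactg

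Of the other probes, all of 60 bases, 3 read GJB2 (chr13:20761915-20761974, minus strand), GJA1 (chr6:121770327-121770386, plus strand) and GJC1 (chr17:42875816-42875875, minus strand), all in hg19. GJB2 was spotted 10 times on each array and the other 4 genes once. None of the 5 probes shares a run of 20 bases, on either strand, with a probe of another gene name. GJA1 has a processed pseudogene, GJA1P1, and whether its transcripts bind the GJA1 probe was not tested.

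Because 5-aza-dC acts on cytosine methylation at CG dinucleotides, the 250 bases before the annotated start of the genes are shown with every CG in capitals. They come from RefSeq (GRCh38.p14), whose promoter table held 3 of the 5 genes, GJB1, GJB2 and GJA1. GJB1 (chrX:71214989-71215238, plus strand) and GJB2 (chr13:20192939-20193188, minus strand) are printed. They were picked because they lie far apart in CG count and in response to 5-aza-dC. Chosen in this way, the pair cannot show whether CG count bears on that response, and this was not tested.
GJB1 promoter: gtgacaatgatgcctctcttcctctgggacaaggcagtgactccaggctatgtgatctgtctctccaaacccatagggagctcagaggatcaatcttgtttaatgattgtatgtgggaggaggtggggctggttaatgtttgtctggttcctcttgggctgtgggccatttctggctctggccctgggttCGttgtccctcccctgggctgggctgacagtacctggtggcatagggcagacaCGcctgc
GJB2 promoter: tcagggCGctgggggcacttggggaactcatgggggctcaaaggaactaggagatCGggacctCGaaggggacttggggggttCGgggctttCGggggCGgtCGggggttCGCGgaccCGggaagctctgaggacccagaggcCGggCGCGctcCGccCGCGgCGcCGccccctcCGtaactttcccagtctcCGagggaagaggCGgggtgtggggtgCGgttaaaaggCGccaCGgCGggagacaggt

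The motif CG, which reads the same on both strands, occurred 2 times in the GJB1 stretch, 25 times in the GJB2 stretch and 1 time in the GJA1 stretch (chr6:121435396-121435645, plus strand). Over the 35116 promoters of that table the median was 11, and 93.9% held at least 1 CG. As many CG or more as GJB2 were found in 21.6% of promoters, as many or more as GJB1 in 85.3%, and as many or more as GJA1 in 93.9%. G or C made up 70.0% of the GJB2 stretch, 55.2% of the GJB1 stretch and 48.0% of the GJA1 stretch. Methylation itself is not measured by these arrays.

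**Figure D1:**
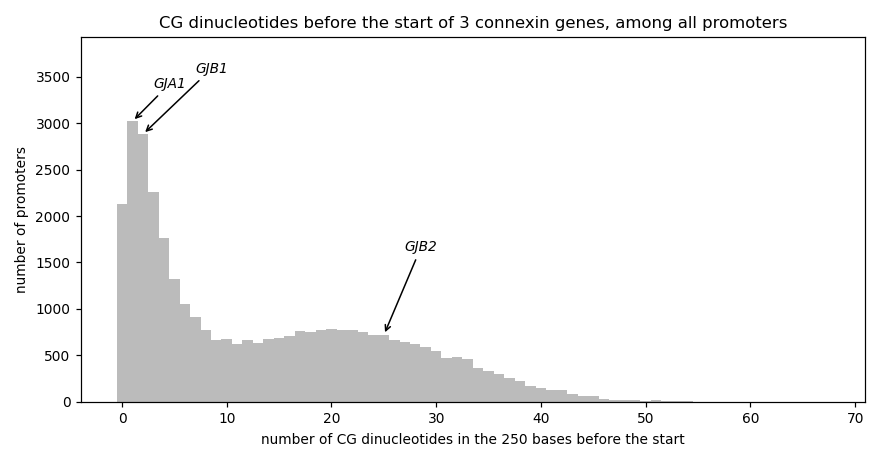
Number of promoters (vertical axis) by their number of CG dinucleotides in the 250 bases before the start (horizontal axis), over 35116 RefSeq promoters, with arrows at 3 connexin genes. GJA1 and GJB1 lie at 1 and 2 CG in the peak at low counts, and GJB2 lies at 25 CG in the broad second rise.

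The scanner software gives each spot a background-corrected signal in linear intensity units, a flag that says whether it is well above background, and a stand-in value in place of the signal where a spot is not significantly positive. Stand-in values made up 28.8 to 36.5% of spots per array and carry no order among themselves. The lowest signal flagged well above background, called the detection floor, was 12.9 to 15.1 on the siRNA arrays and 28.0 after 5-aza-dC. The flag is set spot by spot, so this floor is not a cutoff and some unflagged signals lay above it. PANX2, for example, was unflagged at 16.9 on siUHRF1 + TSA replicate 2, where the floor was 14.3. To compare arrays, the log2 signal was taken relative to the 75th percentile of the array, which lay between 245 and 338 for siRNA arrays and at 822 for 5-aza-dC, whose raw signals ran higher throughout. The single 5-aza-dC array has no spread of its own, so every standard error and p-value for it borrows the spread of the siRNA groups. A fold change is also given as a lower limit ("at least") where a gene was not well above background on any array of 1 group. The detection floor, or the signal itself where higher, was then used. The limit applies to the reported processing and is not a guaranteed minimum, since normexp, another background correction, gave smaller differences for GJB1 and GJB2.

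UHRF1 itself checked the labels. Its brighter probe read 1820 and 1840 on the siCONT arrays, 433 and 292 on the siUHRF1 arrays, 1790 and 1860 with TSA, 223 and 178 with siUHRF1 + TSA, and 10600 with 5-aza-dC. UHRF1 fell by 2.47 ± 0.14 (SE) on the log2 scale with siUHRF1 (adjusted p = 0.00238 from limma) and by 3.17 ± 0.14 with siUHRF1 + TSA (adjusted p = 0.000113). Of 8 colorectal epithelial markers, 3 (KRT8, KRT18 and CDX2) were well above background on both siCONT arrays, whereas VIL1 and the adhesion molecule CDH1 were not on any of the 9 arrays. The number detected on every array of the group was 4 with siUHRF1 + TSA, where KRT19 was added, and 6 with 5-aza-dC, where EPCAM, KRT19 and KRT20 were, and its part in the connexin values was not tested. Whole-culture RNA was measured, so fewer cells that express a gene and less RNA per cell cannot be told apart.

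GJB1 was the member lost from detection. Its signal was 21.0 and 73.6 on the 2 siCONT arrays, 6.12 and 5.04 on the siUHRF1 arrays, 3.41 and 3.83 with siCONT + TSA, 3.55 and 3.59 with siUHRF1 + TSA, and 7.77 with 5-aza-dC. Both siCONT arrays were well above background and none of the other 7 was, so treated and control arrays did not overlap. All 4 TSA values were stand-ins, while the siUHRF1 and 5-aza-dC values were measured and dim. Among the 21997 probes well above background on both siCONT arrays, 20 (0.0909%) were below it on all 7 other arrays, as GJB1 was.

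The control level of GJB1 was itself unsteady. The 2 siCONT arrays lay 1.80 apart on the log2 scale relative to the 75th percentile, a 3.47-fold gap. The median gap of the tested probes between these arrays was 0.0699. Only 17 of 21997 probes (0.0773%) well above background on both arrays were as far apart. Replicate 1, at 21.0, was near the lowest signal well above background on that array, 13.7.

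**Figure D2:**
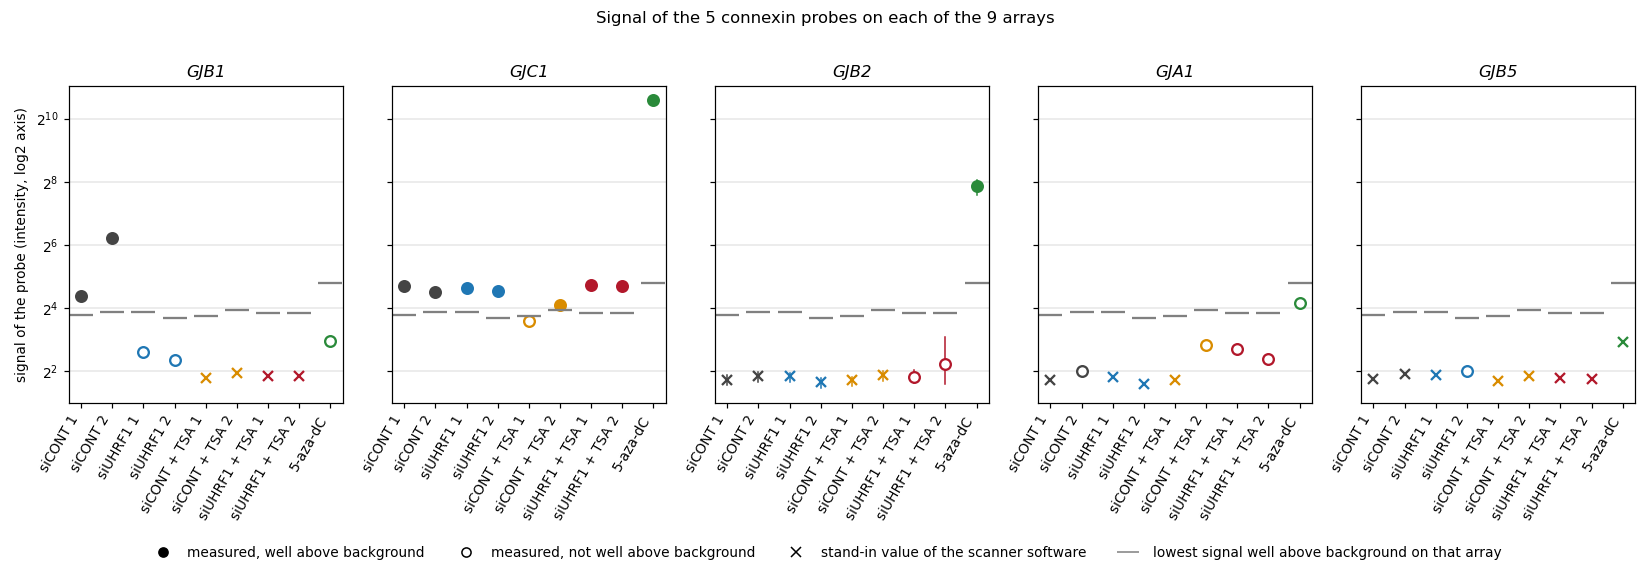
Signal of each of the 5 connexin probes (vertical axis, intensity on a log2 axis) on the 9 arrays (horizontal axis), coloured by group. Filled circles are well above background, open circles are measured but not well above it (for GJB2, at least 1 of its 10 spots measured), crosses are stand-in values, grey dashes mark the lowest signal well above background on each array, and vertical lines give the range of the 10 GJB2 spots. GJB1 is above the dashes on the siCONT arrays alone, GJB2 on the 5-aza-dC array alone, GJC1 on 8 of 9 arrays, and GJA1 and GJB5 on none.

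Relative to siCONT, with the siCONT mean at −2.85 ± 1.27 (SD, n = 2), the log2 difference of GJB1 was −2.93 ± 0.52 (SE) in siUHRF1, −3.26 ± 0.52 in siCONT + TSA, −3.43 ± 0.52 in siUHRF1 + TSA and −3.87 ± 0.65 with 5-aza-dC. Each SE pools the wide siCONT spread with that of groups below background. Their SDs were 0.002 in siUHRF1, 0.078 in siCONT + TSA and 0.041 in siUHRF1 + TSA, the TSA values being stand-ins. The SEs therefore understate the uncertainty that the siCONT arrays bring. The fitted differences rest on dim spots and stand-ins, and normexp background correction took them to −0.75, −0.07, −0.65 and −1.71. On the reported scale, with the detection floor in their place, GJB1 was at least 3.08-fold lower with siUHRF1 and 2.45-fold lower with siCONT + TSA. It was at least 2.69-fold lower with the combination and 4.07-fold lower with 5-aza-dC. The normexp differences were all smaller than these limits. Leaving out siCONT replicate 2 took these limits down to 1.65-fold, 1.31-fold, 1.44-fold and 2.18-fold, and leaving out siCONT replicate 1 took them up to 5.75-fold, 4.56-fold, 5.01-fold and 7.59-fold. The treated groups, with means from −5.79 to −6.72, were all below background and have no order among them.

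**Figure D3:**
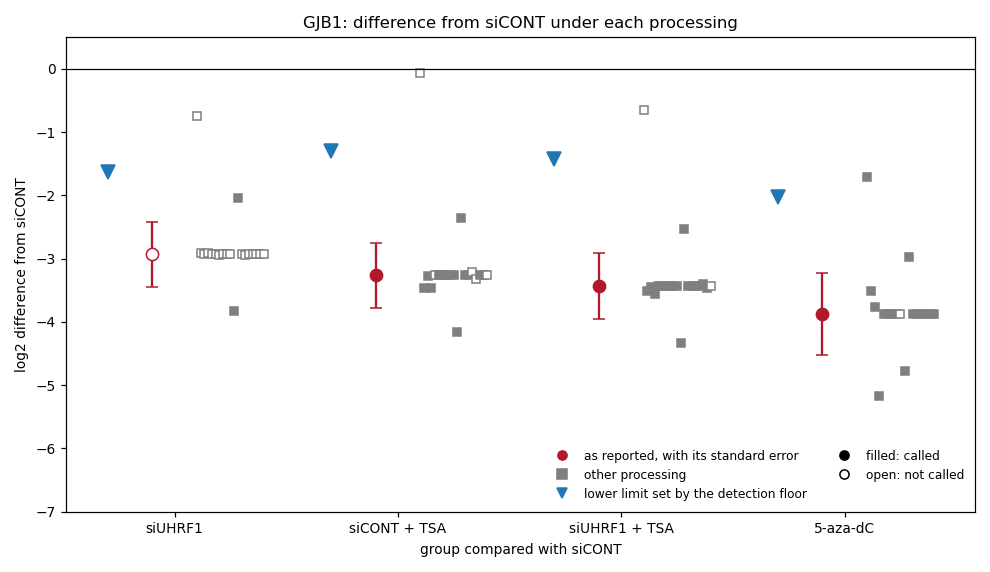
Log2 difference of GJB1 from siCONT (vertical axis) for the 4 other groups (horizontal axis). Red circles give the value as reported with its standard error, grey squares the same value under each other processing, filled where called and open where not, and blue triangles the lower limit set by the detection floor. Every value lies below 0, from −0.07 to −5.17, and the limits lie closer to 0 than the reported values.

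GJC1 was the member detected most often. Its signal was 25.6 and 22.6 on the siCONT arrays, 24.9 and 23.1 with siUHRF1, 12.1 and 17.1 with siCONT + TSA, 26.7 and 26.0 with siUHRF1 + TSA, and 1538 with 5-aza-dC. It was well above background on 8 of 9 arrays, the exception being replicate 1 of siCONT + TSA, and the 8 siRNA arrays all stood near the floor. On the log2 scale relative to the 75th percentile the order was 0.90 with 5-aza-dC, then −3.40 ± 0.002 (SD, n = 2) in siUHRF1 + TSA, −3.56 ± 0.14 in siCONT, −3.68 ± 0.12 in siUHRF1 and −4.12 ± 0.31 in siCONT + TSA. The siCONT and siUHRF1 arrays overlapped, and the other neighbours among the siRNA groups lay closer, by their nearest arrays, than the larger SD of each pair.

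With 5-aza-dC, GJC1 was higher by 4.46 ± 0.21 (SE) on the log2 scale, 22-fold relative to the 75th percentile, and 2.59% of the 27171 probes tested were higher by as much or more. In siCONT + TSA its difference from siCONT was −0.57 ± 0.17, which changed sign to 0.37 with another background correction (normexp). In siUHRF1 + TSA it was 0.16 ± 0.17 against siCONT, −0.05 with quantile normalization, and 0.73 ± 0.17 against siCONT + TSA, −0.34 with normexp.

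GJB2 was seen with 5-aza-dC alone. Its 10 spots read 191 to 264 there, with a median of 235, and all 10 were measured and well above background. On the 6 siCONT, siUHRF1 and siCONT + TSA arrays every one of the 10 spots was a stand-in, between 2.74 and 3.96. On the siUHRF1 + TSA arrays 1 of 10 spots was measured in replicate 1, at 4.10, and 3 of 10 in replicate 2, at 6.98 to 8.51, none of them well above background. GJB2 was at least 5.65-fold higher with 5-aza-dC than in siCONT (5.48-fold to 5.82-fold with either siCONT array left out), and the fitted difference, taken against stand-ins, was 4.55 ± 0.17 (SE) on the log2 scale, 3.25 with spike-in scaling and 0.99 with normexp. The normexp value lay below that limit, which applies to the reported processing only. The SE of 0.17 reflects scatter among values below background on the siRNA arrays, most of them stand-ins, and no spread of the 5-aza-dC signal. Of the 26974 probes below background on both siCONT arrays, 14.5% were well above it on the 5-aza-dC array.

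GJA1 stayed below the detection level on all 9 arrays. Its spot was a stand-in of 3.26, 3.51, 3.03 and 3.26 on siCONT replicate 1, both siUHRF1 arrays and siCONT + TSA replicate 1, and was measured at 3.96 on siCONT replicate 2, 7.03 on siCONT + TSA replicate 2, 6.47 and 5.24 on the siUHRF1 + TSA arrays and 17.8 with 5-aza-dC. The highest of these values came from TSA and 5-aza-dC arrays, but none reached the floor of its array and no fold is given.

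GJB5 gave no signal. It was a stand-in on 8 of 9 arrays, at 3.19 to 3.71 on the siRNA arrays and 7.64 with 5-aza-dC, and was measured only on siUHRF1 replicate 2, at 4.01. GJB2 on chromosome 13 lies between GJB6, whose probe 35.0 kb away was below background on all 9 arrays, and GJA3, whose probe 49.2 kb away was above it on all 9.

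Only GJB1 and GJC1 passed the filter on dim probes for the 8 siRNA arrays, and GJB1, GJC1 and GJB2 for the comparison with 5-aza-dC, GJB1 passed only through siCONT and GJB2 only through the 5-aza-dC array, the groups in which each was high, so the filter itself fixed the direction of their differences. With siUHRF1, 0 of the 2 were called at an adjusted p below 0.05, beside 0.556% of all 23726 probes tested. In siCONT + TSA against siCONT 1 of 2 was called (GJB1), beside 10.4% of all probes, and in siUHRF1 + TSA against siCONT 1 of 2 (GJB1), beside 23.2%. In siUHRF1 + TSA 0 of 2 were called against siCONT + TSA, beside 3.54%, and 0 of 2 against siUHRF1, beside 15.5%. The interaction of siUHRF1 and TSA called 0 of 2, beside 0.379%. With 5-aza-dC 3 of 3 were called, GJB1 lower and GJB2 and GJC1 higher, beside 48.9% of the 27171 probes. The GJB1 call in siCONT + TSA was lost when either siCONT + TSA array was left out. Nothing is read from these counts, since the choice of the genes used the same arrays, and all comparisons with siCONT share its 2 arrays.

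By Pearson's r over the 8 siRNA arrays, the gene symbols most like GJB1 were GZF1 (0.95), WBP11 (0.94) and BSN-AS2 (0.94). Over all 9 arrays they were BSN-AS2, EME1 and OR1F1 (0.94 to 0.92). Of these, BSN-AS2, at 18.6 and 22.3 on the siCONT arrays, and OR1F1, at 21.9 and 25.9, were well above background on the siCONT arrays and on no other, as GJB1 was. Another probe of BSN-AS2 was below background on all 9 arrays. GJC1 was most like GRAMD4 (0.96), KCNQ1DN (0.96) and FLYWCH1 (0.95) over 8 arrays, and most like FZD8, ISYNA1 and SERINC3 (0.99 each) over 9. The values for GJB1 rest on the 2 siCONT arrays, which lay 3.47-fold apart, since its other values were below background and 4 of them were stand-ins. These points share arrays and slide, those over 9 arrays lean on the single 5-aza-dC array, and the genes were picked as the highest of 23699 probes over 8 arrays.

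The rest of the family showed where the 5 genes stood. Of 12 other connexin genes described by name, 9 were below background on all 9 arrays by every probe and 3 (GJA3, GJD3 and GJD4) were above it on all 9 arrays by at least 1 probe. The 2 probes of GJD4 are annotated on opposite strands of chromosome 10, so they are not 2 readings of 1 transcript. GJD4 read 1174 to 1530 on the siRNA arrays by its bright probe, on the plus strand, and 3.08 to 4.84 by the probe on the minus strand.

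**Figure D4:**
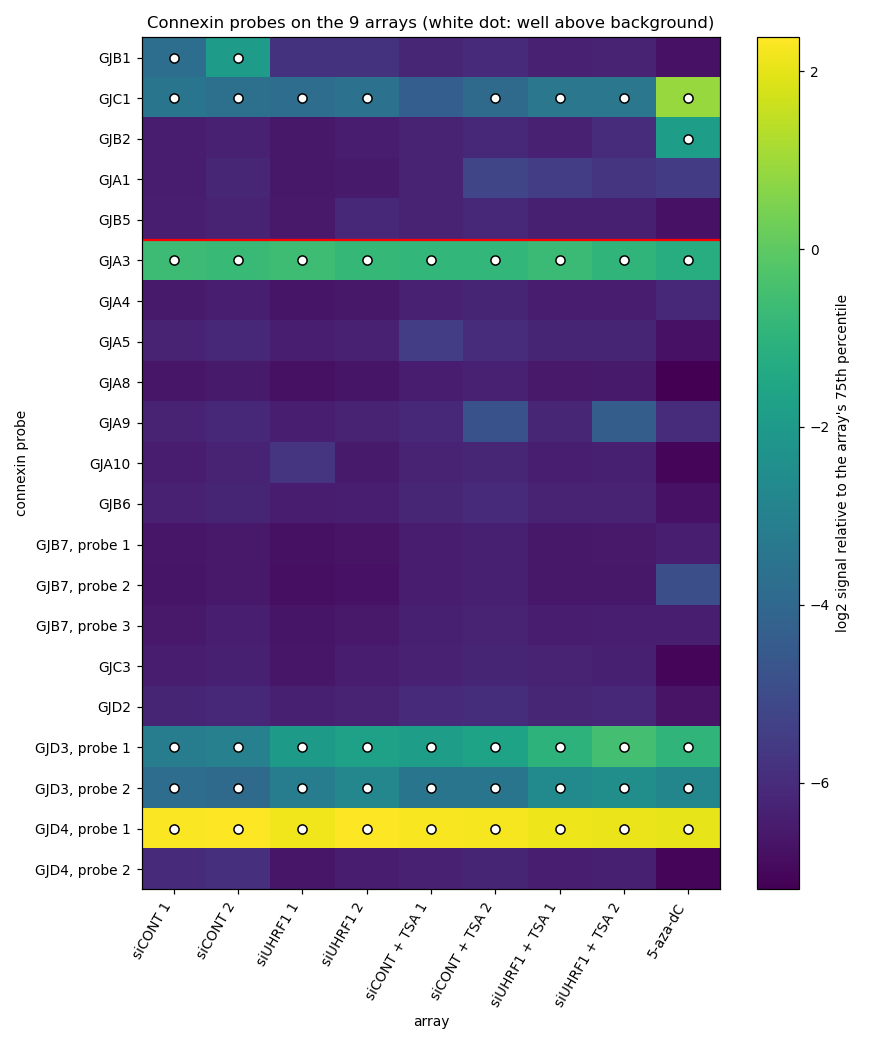
Log2 signal relative to the 75th percentile of the array (colour) for connexin probes (rows) on the 9 arrays (columns), with the 5 genes described here above the red line and white dots where a probe was well above background. GJB1 carries dots on the 2 siCONT arrays, GJB2 on the 5-aza-dC array, and 9 of the 12 other genes shown carry none.

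In the fit over all probes, GJD3 was higher in the combination, and it is named because it was called. GJD3, a connexin of low expression in most tissues, read 31.2 and 34.8 on the siCONT arrays, 86.1 and 84.5 with siUHRF1, 69.3 and 81.0 with siCONT + TSA, 139 and 196 with siUHRF1 + TSA, and 431 with 5-aza-dC by its brighter probe. All arrays of every other group lay above both siCONT arrays. With 2 arrays a group, such separation also occurred in genes that were not called, such as TJP1 with siUHRF1. By limma, GJD3 rose in log2 signal by 1.36 ± 0.20 with TSA on siCONT (adjusted p = 0.0156), by 2.35 ± 0.20 with siUHRF1 + TSA (adjusted p = 0.00116) and by 2.17 ± 0.25 with 5-aza-dC (adjusted p = 0.00111). With siUHRF1 alone its 1.26 ± 0.20 missed the threshold (adjusted p = 0.0726). The second probe gave 0.90 with siUHRF1, 0.37 with siCONT + TSA, 1.27 with siUHRF1 + TSA and 1.04 with 5-aza-dC, so the probes disagreed on TSA alone. The TSA call of the brighter probe was lost without any 1 of the siCONT or siCONT + TSA arrays.

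**Figure D5:**
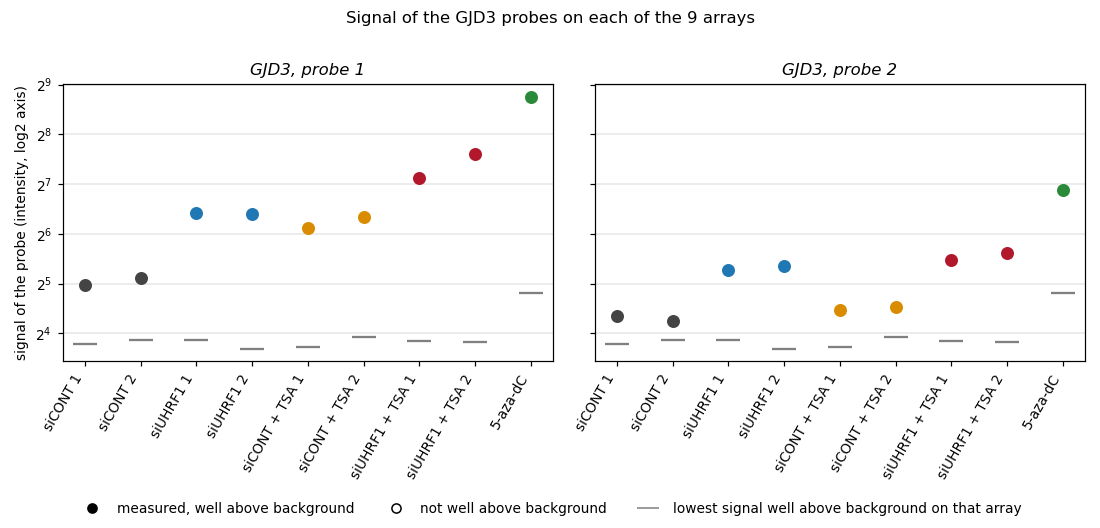
Signal (vertical axis, intensity on a log2 axis) of the 2 GJD3 probes on the 9 arrays (horizontal axis), coloured by group, with filled circles well above background, open circles not, and grey dashes at the lowest signal well above background on each array. Among siRNA arrays GJD3 is highest with siUHRF1 + TSA, at 139 and 196 by probe 1.

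Counted by the brightest probe over all 15 other connexins on the array, 5 passed the filter on dim probes. With siUHRF1, 0 were called by limma, 1 had an unadjusted p below 0.05, and the median difference was 0.06, beside −0.001 over all gene names. In siCONT + TSA 1 of 5 was higher (beside 10.8% of all gene names called), with a median of 0.45 beside 0.08. In siUHRF1 + TSA 2 of 5 were higher (beside 24.2%), with a median of −0.03 beside 0.07. With 5-aza-dC 2 of 5 were higher and 1 lower (beside 49.3%), with a median of 0.34 beside 0.06. The lower one was GJA3, which differed by −0.53 ± 0.17 (adjusted p = 0.0418 from limma), a call lost without either siCONT array. Against siCONT + TSA 0 were called, with 2 at an unadjusted p below 0.05, and the interaction of siUHRF1 and TSA called 0, with 0 at an unadjusted p below 0.05.

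Pannexins form single-membrane channels of a similar shape. PANX1, the widely expressed member, rose in log2 signal by 0.69 ± 0.09 with TSA on siCONT (adjusted p = 0.0119 by limma, lost without any 1 of those 4 arrays), by 0.66 ± 0.09 in siUHRF1 + TSA (adjusted p = 0.00491) and by 1.25 ± 0.11 with 5-aza-dC (adjusted p = 0.000377), the last value falling to −0.05 when arrays were scaled on spike-in probes. With siUHRF1 it was 0.02 ± 0.09. PANX2 passed no test by its brighter probe. Its other probe was well above background on the 5-aza-dC array alone, at 45.7, and passed the filter only through that array. The fitted difference of that probe from siCONT was 2.285 on the log2 scale, taken against values below background, with a limit of at least 1.11-fold.

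Among the proteins that bind, phosphorylate or degrade connexins, 20 of 21 genes on the array passed the filter. With siUHRF1 0 were called and 1 had an unadjusted p below 0.05 by limma. In siUHRF1 + TSA 5 rose and 2 fell against siCONT (35.0% of 20, beside 24.2% of all gene names), with a median of 0.07. EZR, the gene of ezrin, rose by 1.16 ± 0.10 (adjusted p = 0.00125) and DBN1, the actin-binding drebrin, by 0.76 ± 0.12 (adjusted p = 0.00751). The kinase gene PRKCE fell by 0.76 ± 0.12 (adjusted p = 0.00925) by its brighter probe, where the other gave 0.31, and the ubiquitin ligase gene NEDD4 by 0.65 ± 0.13 (adjusted p = 0.0193). In siCONT + TSA 3 of 20 rose and 1 fell (beside 10.8% of all gene names), and with 5-aza-dC 4 of 20 rose and 4 fell (beside 49.3%), among them SMURF2, a ubiquitin ligase gene, at −1.77 ± 0.20 (adjusted p = 0.00109). TJP1, the scaffold that binds GJA1 at the junction, was not called in any comparison (adjusted p = 0.135 to 1.00 by limma).

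Of 17 genes of the other junctions that passed the filter, 5 rose and 1 fell in the combination (35.3%, beside 24.2% of all gene names), and the difference between these shares was not tested. JUP, the plakoglobin of desmosomes and adherens junctions, read 7.20 and 5.64 on the siCONT arrays, 14.3 and 11.5 with siUHRF1, 6.85 and 3.97 with siCONT + TSA, 42.2 and 36.9 with siUHRF1 + TSA and 396 with 5-aza-dC, so it was well above background on the siUHRF1 + TSA and 5-aza-dC arrays alone. On the siRNA arrays JUP passed the filter only through siUHRF1 + TSA, where it was high, so its limits of at least 2.84-fold higher with siUHRF1 + TSA and at least 9.65-fold higher with 5-aza-dC are given without a p. CLDN4, a claudin of tight junctions, passed in the same way and was at least 3.24-fold higher with siUHRF1 + TSA, and both genes are among the 5 that rose. These limits apply to the reported processing only. Under other processings the log2 difference with siUHRF1 + TSA fell as low as 0.607 for JUP and 0.576 for CLDN4, below the limits. The 5-aza-dC difference of JUP also fell below its limit. With siUHRF1 + TSA, JUP was called in 17 of 19 other processings and CLDN4 in 7 of 19. OCLN, the occludin of the tight junction, fell by 1.15 ± 0.10 (adjusted p = 0.00148 from limma). CDH3, a classical cadherin, was at least 1.53-fold lower with siCONT + TSA (adjusted p = 0.0121), where normexp gave 0.27, and read 26.7 and 39.5 with siUHRF1 + TSA, beside 22.9 and 26.4 in siCONT.

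Markers of other cell types also moved with these groups. Their sums are raw signals, which ran higher throughout on the 5-aza-dC array. Here and for the epithelial markers, a gene counted as detected if any of its probes was. Other probes of DCN (fibroblast), PTPRC (leukocyte) and VWF (endothelial) were below background on every array. Among 3 fibroblast markers, 1 was detected throughout siCONT and 3 throughout siUHRF1 + TSA, with a summed signal of 49.3 to 62.4 in siCONT and 179 to 264 in siUHRF1 + TSA. Among 3 leukocyte markers, 0 were detected throughout siCONT and 3 after 5-aza-dC, with summed signals of 53.8 to 75.7 and 582. Among 3 endothelial markers, 2 were detected throughout siCONT and after 5-aza-dC, with summed signals of 72.1 to 81.0 in siCONT, 186 to 231 in siUHRF1 + TSA and 217 with 5-aza-dC, and PECAM1 was below background on all 9 arrays. Their part in the values of the connexins was not tested.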

How the data were processed

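The authors hybridised RNA of 9 RKO samples in 1 colour (Cy3) to Agilent arrays (SurePrint G3 Human GE v2) and extracted the spots with Feature Extraction 10.7.3.1, per the file headers. The deposited values are linear intensity signals, background-subtracted and spatially detrended, with no normalization between arrays. The deposited value table differed from them by at most 0.497%. The study's methods name t-tests and analysis of variance, and neither a normalization nor a filter. A total of 62976 spots, 4259 of them controls, gave 50599 probes. No spot was saturated, and the number of arrays limits the precision.

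From these, log2 signals minus the 75th percentile of each array were computed, without outlier spots, and spots of a probe were averaged. Probes well above background on every array of at least 1 group were tested with limma 3.58.1 (R 4.3.3) and Benjamini-Hochberg adjustment: 23726 probes on the 8 siRNA arrays, and 27171 on 9 arrays for 5-aza-dC. The procedure was tested on simulated data. The 8 siRNA arrays shared 1 slide and 1 scan, with vehicle and TSA in different rows and siCONT and siUHRF1 in different columns, so position and treatment cannot be told apart. Probe positions are hg19. Promoters come from RefSeq GRCh38.p14. List counts use the probe of highest mean signal. Listed genes are named where called with arrays that do not overlap, at most 5 per list and comparison, and 3 alike genes per connexin. The connexins and all lists were chosen with earlier results of these data known. Some genes of the connexin list and 1 probe sequence are not reported here.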

Additional observations from a re-analysis of the deposited data

How the results depend on the processing

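The numbers of other connexins called were small and moved with the processing. With siUHRF1 against siCONT, 0 became 1 with spike-in scaling, the replicate block, a trended and robust prior and the methods' t-test without adjustment. With siCONT + TSA, 1 became 0 with normexp and without the filter on dim probes, and 2 with the unadjusted t-test. With siUHRF1 + TSA against siCONT, 2 became 1 with normexp and a stricter filter, and 0 with the adjusted t-test. Against siCONT + TSA, 0 became 1 with spike-in scaling, the replicate block and the trended prior, and 3 with the unadjusted t-test. Against siUHRF1, 2 became 1 with the stricter filter and the replicate block, and 0 with normexp, without the filter, with only the arrays compared and with either t-test. With 5-aza-dC, 3 became 5 with spike-in scaling and 7 without the filter. Leaving out 1 array gave 0 to 1 (siCONT + TSA), 1 to 3 (siUHRF1 + TSA against siCONT), 0 to 1 (against siCONT + TSA), 0 to 2 (against siUHRF1) and 2 to 4 (5-aza-dC). The cause was not tested.

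GJB1 was called in 2 of 19 other processings with siUHRF1, in 14 of 19 with siCONT + TSA, in 17 of 19 with siUHRF1 + TSA and in 16 of 17 with 5-aza-dC. Its values for these ran from −3.83 to −0.75, −4.16 to −0.07, −4.33 to −0.65 and −5.17 to −1.71, the value nearest 0 coming from normexp each time. GJC1 and GJB2 with 5-aza-dC ran from 2.89 to 4.57 and from 0.99 to 4.66. Spike-in scaling took the median difference of all probes with 5-aza-dC from 0.01 to −1.29. Of 960 values of the listed genes under other processings, 728 were called, 227 kept their direction without a call and 5 reversed: with spike-in scaling PANX1 to −0.051 and EZR to −0.54 for 5-aza-dC, and with normexp CDH3 to 0.27 for siCONT + TSA and JUP to −0.028 and CDH3 to −0.10 for siUHRF1 + TSA against siCONT + TSA. UHRF1 lost its call in siUHRF1 under the adjusted t-test alone.

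Replicate numbers paired siUHRF1 and siUHRF1 + TSA by siRNA, and deviations of equal numbers correlated at 0.466 between these groups. Elsewhere the correlation was between −0.05 and 0.08. The main fit did not use this pairing, and the replicate block applied a single shift to equal numbers in all siRNA groups. The replicate block left the GJB1 differences of the siRNA arrays as they were (−3.43 for siUHRF1 + TSA) and changed none of its calls. A slide or scan block could not be fitted, since the 5-aza-dC array alone lay on the second slide.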
